A study of Mus musculus with 21 samples.

Results

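The 8 genes described here encode pore-forming alpha1 subunits of voltage-gated calcium channels: Cacna1a, Cacna1b, Cacna1c, Cacna1d, Cacna1e, Cacna1g, Cacna1h and Cacna1i. They were taken by gene name from a deposited table of 16318 genes, and each name matched 1 row. The table holds estimated RNA-sequencing counts for whole brains of 21 SAMP8 mice, a senescence-accelerated strain with early memory deficits, with 1 library per mouse. The PBS group received phosphate-buffered saline (12 mice, 6 female and 6 male). The HsTX1[R14A] group received that peptide, a blocker of the potassium channel Kv1.3, at 1 mg/kg (9 mice, 3 female and 6 male). Subcutaneous dosing in both groups was on alternate days for 8 weeks from 4 months of age, the mice had also been through behavioral tests, and the brains were perfused and taken at about 6 months. All mice were of the SAMP8 strain, so no strain without accelerated senescence stands beside them in the comparison.

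An alpha1 subunit is a single long protein of homologous repeats that surround the calcium pore and carry the voltage sensors. Auxiliary beta and alpha2delta subunits bring most of these channels to the membrane and tune their gating, while the T-type channels can work without them. Cacna1c and Cacna1d encode the L-type pores Cav1.2 and Cav1.3, which couple neuronal activity to transcription and, for Cav1.3, support pacemaking. Cacna1a, Cacna1b and Cacna1e encode the P/Q-, N- and R-type pores, which admit the calcium that triggers transmitter release. Cacna1g, Cacna1h and Cacna1i encode the low-voltage-activated T-type pores, known for burst firing in the thalamus and elsewhere.

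Each repeat contributes 1 acidic residue to the selectivity filter of the pore, through a codon for glutamate in repeats I and II of all 8 genes. In repeats III and IV the codon was for aspartate in the T-type genes and for glutamate in the other 5. The windows of 27 bases around that codon in repeat III are shown because they display this difference between the members. They were read from GENCODE M21 transcripts on GRCm38 in the sense direction, with the filter codon in capitals.
Cacna1a: gtgtccacaggaGAGggctggccacag
Cacna1b: gtgtccacgggaGAGgggtggcccatg
Cacna1c: gtctccaccttcGAAgggtggccagag
Cacna1d: gtctcaacttttGAGggctggcccgcg
Cacna1e: gtctctacagggGAAggatggcctcag
Cacna1g: ctggcctccaagGATggctgggttgac
Cacna1h: ctgtcatccaagGATggctgggtaaac
Cacna1i: ttggcctccaagGATggctgggtgaac
The codon was GAA or GAG, for glutamate, in the first 5 genes and GAT, for aspartate, in the 3 T-type genes. The T-type windows each lay in the coding part of exon 24 of the transcript, at chr11:94426459-94426485 on the minus strand for Cacna1g, chr17:25383496-25383522 on the minus strand for Cacna1h and chr15:80376795-80376821 on the plus strand for Cacna1i. In the other 5 genes the window crossed an exon junction. The T-type windows were alike at 23 or 24 of 27 bases in each pair, whereas Cacna1a and Cacna1b shared 22 bases, and Cacna1d and Cacna1i shared 11.

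Some features of the libraries need to be known before the levels are read. Total counts ran from 14917174 to 47613792 per mouse, and each member had at least 126 counts in every mouse. Over all genes, mice of the same treatment and sex differed by more than the counting of reads allows. The chi-square per gene was 7.58 or more in each of 48 pairs. The libraries also differed in how their counts depended on transcript length. The length slope, which is the change in centered log2 CPM for each doubling of the longest transcript over 16224 genes, ran from -0.38 to 0.15 in PBS mice and from -0.14 to 0.23 in HsTX1[R14A]-treated mice. Mitochondrially encoded genes took 9.33% to 20.2% of counts in PBS mice and 7.13% to 13.5% in treated mice. Neuronal and glial markers were present in every library. Markers that define the cerebellum (Gabra6, Cbln3, Pcp2 and Fat2) had medians under 1.5 CPM in both groups, so these 4 were nearly absent in most libraries labeled whole brain. The other 2 genes of the list were higher, with PBS and treated medians of 12.9 and 12.5 CPM for Cbln1 and of 15.1 and 12.7 CPM for Car8. The summed cerebellar list reached 518 CPM in treated mouse 74 and 106 CPM in PBS mouse 73, and at most 64.7 CPM in the other mice.

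Per unit of transcript length, the mean levels of the 8 genes over the 21 brains fell into 3 tiers. Cacna1e (12.2 ± 4.91 CPM per kb, SD, n = 21) and Cacna1a (11.3 ± 5.20 CPM per kb) were highest. Cacna1i, Cacna1g, Cacna1b and Cacna1h formed the middle tier, with mean levels of 5.48, 5.38, 5.30 and 5.19 CPM per kb. The L-type genes Cacna1c (3.65 ± 1.95 CPM per kb) and Cacna1d (3.05 ± 1.11 CPM per kb) were lowest. These levels are TMM-scaled CPM, the counts relative to library size, divided by the length of the longest annotated transcript, which ran from 7926 bases for Cacna1a to 14921 bases for Cacna1e.

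Both top genes lay above all 4 middle genes in 21 of 21 mice (20 by merged exons). All 4 middle genes lay above both L-type genes in 16 of 21 mice (19 by merged exons), and in the other 5, which included PBS mice 90 and 103 and treated mouse 93, at least 1 of them fell below Cacna1c or Cacna1d. Cacna1a lay above Cacna1i in 21 of 21 mice, with a mean log2 ratio of the levels of 1.13 ± 0.32 (SD). Cacna1h lay above Cacna1c in 21 of 21 mice, with a mean log2 ratio of 0.58 ± 0.21. In contrast, Cacna1e exceeded Cacna1a in 17 of 21 mice with a mean log2 ratio of 0.15 ± 0.27, and the order turned when merged exon length was used, with Cacna1e higher in 6 mice. Within the middle tier, Cacna1i exceeded Cacna1g in 13 mice, Cacna1g exceeded Cacna1b in 10 and Cacna1b exceeded Cacna1h in 12. Cacna1c exceeded Cacna1d in 14 mice by the longest transcript and in 7 by merged exons. Neighbors within a tier therefore differed by less than their spread, except that Cacna1b exceeded Cacna1h in 18 mice by merged exons and Cacna1g exceeded Cacna1b in only 4.

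Expressed as shares of the summed level of the 8 genes, the P/Q-, N- and R-type pores accounted for 57.2 ± 2.56% in PBS mice (SD, n = 12) and 55.8 ± 2.72% in treated mice (n = 9). The T-type pores accounted for 29.4 ± 2.72% and 31.3 ± 2.69%, and the L-type pores for 13.3 ± 0.91% and 12.8 ± 1.23%. Each class differed between the groups by less than 1 SD. Among single genes the furthest apart were Cacna1i, at 9.22 ± 1.77% in PBS and 11.4 ± 1.74% in treated mice, and Cacna1d, at 6.84 ± 1.03% and 5.58 ± 0.86%. The ranges of both shares overlapped between the groups, and these differences in share were not tested.

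**Figure D1:**
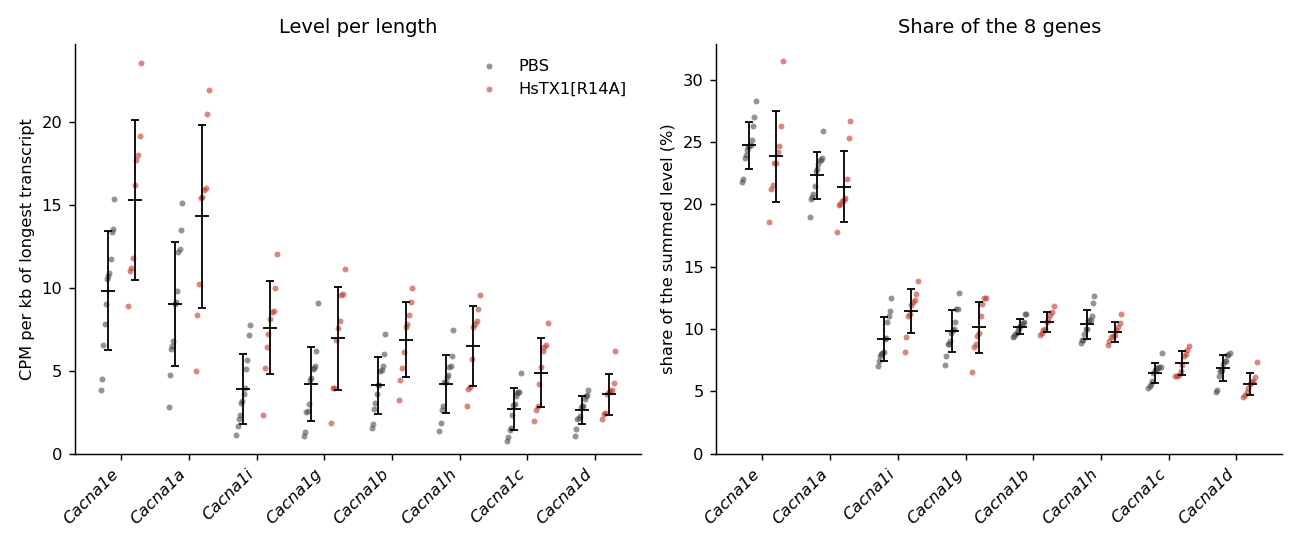
Level of each pore subunit gene per kb of its longest transcript (left, CPM per kb) and its share of the summed level of the 8 genes (right, percent), with 1 point per mouse, PBS in gray and HsTX1[R14A] in red, and bars for mean ± SD. Cacna1e and Cacna1a have the highest and Cacna1c and Cacna1d the lowest mean levels in both groups.

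The comparison of HsTX1[R14A] with PBS asks how blockade of Kv1.3 over 8 weeks moved the brain transcriptome. All 8 pore subunit genes had a higher fitted level in HsTX1[R14A]-treated mice, and 6 of the 8 rose (edgeR quasi-likelihood test with sex in the model and Benjamini-Hochberg adjustment over 16303 genes, FDR at most 0.05). Over all genes tested, 15.5% rose and 16.1% fell. The median log2 fold change of the 8 genes was 0.77, beside -0.013 for all genes. No member separated the groups completely (0.0184% of all genes did), as the lowest treated mice lay within the PBS range for each gene. In none of the 8 did every treated mouse lie above the PBS median, which held for 4.58% of all genes. In 6 of the 8 genes at least 5 of the 9 treated mice exceeded every PBS mouse, a pattern shared by 7.55% of all genes tested. In a whole-brain extract, more cells of a type and more RNA per cell cannot be told apart.

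The presynaptic P/Q-, N- and R-type genes all rose. Cacna1a (ENSMUSG00000034656, chr8:84388440-84640246, plus strand), whose P/Q-type channel carries much of fast synaptic transmission, had a lowest, median and highest level of 22.5, 72.1 and 120 CPM in PBS mice and of 39.7, 123 and 174 CPM in treated mice. The 6 highest treated mice exceeded the highest PBS mouse, and the lowest treated mouse exceeded only 2 PBS mice. The increase was 1.67-fold (95% CI 1.16 to 2.41), or 0.74 ± 0.26 (SE) on the log2 scale (edgeR FDR = 0.0351). Cacna1b (ENSMUSG00000004113, chr2:24603887-24763152, minus strand), the N-type pore that is blocked by omega-conotoxin GVIA, gave 14.8, 40.5 and 70.4 CPM in PBS mice and 31.3, 74.5 and 97.2 CPM in treated mice. All treated mice but 1 lay above the PBS median. It rose 1.73-fold (95% CI 1.25 to 2.40; log2 0.79 ± 0.23; edgeR FDR = 0.0203).

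Cacna1e (ENSMUSG00000004110, chr1:154390731-154884501, minus strand), which encodes the R-type pore Cav2.3, had a lowest, median and highest level of 57.5, 159 and 229 CPM in PBS mice and 133, 242 and 352 CPM in treated mice. The 3 treated females, at 269 CPM or more, all exceeded the highest PBS mouse, as did treated males 81 (265 CPM) and 88 (242 CPM). The fold change was 1.60 (95% CI 1.19 to 2.16; log2 0.68 ± 0.21; edgeR FDR = 0.0238).

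Of the L-type genes, Cacna1c rose and Cacna1d did not pass the test. Cacna1c (ENSMUSG00000051331, chr6:118587240-119196418, minus strand), the L-type pore predominant in brain and heart, gave 10.4, 39.3 and 63.8 CPM as lowest, median and highest in PBS mice, and 26.3, 68.8 and 104 CPM in treated mice. The top 5 treated mice exceeded every PBS mouse, while 3 lay below the PBS median. The increase was 1.86-fold (95% CI 1.25 to 2.79; log2 0.90 ± 0.28; edgeR FDR = 0.0255). Cacna1d (ENSMUSG00000015968, chr14:30039939-30491455, minus strand) gave 10.4, 27.2 and 36.9 CPM in PBS mice and 20.1, 35.8 and 59.7 CPM in treated mice. The groups overlapped over most of their range, with 3 treated mice above every PBS mouse. The fold was 1.39 (95% CI 1.05 to 1.85; log2 0.48 ± 0.20; edgeR FDR = 0.0661), the smallest of the 8.

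Among the T-type genes, Cacna1i and Cacna1h rose and Cacna1g did not pass. Cacna1i (ENSMUSG00000022416, chr15:80287238-80398279, plus strand), the Cav3.3 pore of thalamic reticular neurons, gave 10.8, 33.1 and 75.8 CPM as lowest, median and highest in PBS mice and 22.6, 79.4 and 118 CPM in treated mice. Of the 9 treated mice, 8 lay above the PBS median. Its 2.09-fold increase was the largest of the 8 (95% CI 1.37 to 3.18; log2 1.06 ± 0.29; edgeR FDR = 0.0191). Cacna1h (ENSMUSG00000024112, chr17:25374285-25433783, minus strand), the Cav3.2 pore known from sensory neurons, gave 11.2, 36.9 and 61.5 CPM in PBS mice and 23.5, 62.9 and 78.7 CPM in treated mice. As for Cacna1c, 5 treated mice exceeded every PBS mouse and 3 lay below the PBS median. The increase was 1.58-fold (95% CI 1.11 to 2.26; log2 0.66 ± 0.25; edgeR FDR = 0.0470).

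Cacna1g (ENSMUSG00000020866, chr11:94408391-94474198, minus strand), the Cav3.1 pore of thalamic relay neurons, had a lowest, median and highest level of 8.94, 37.8 and 76.1 CPM in PBS mice and 15.5, 63.6 and 93.6 CPM in treated mice. Its PBS range was wide, and PBS mouse 84 exceeded 6 of the 9 treated mice. The fold was 1.75 (95% CI 1.11 to 2.75; log2 0.80 ± 0.32; edgeR FDR = 0.0550). Exons of Cacna1a, Cacna1d and Cacna1h overlap those of Gm16183, Chdh and Tpsg1 on the opposite strand. The study's methods name a directional (strand-marking) library kit, whereas the labels name a SMARTER kit, and whether strand was used in the counting is not given in the sources used here. Reads from these overlaps are therefore uncertain in their gene.

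**Figure D2:**
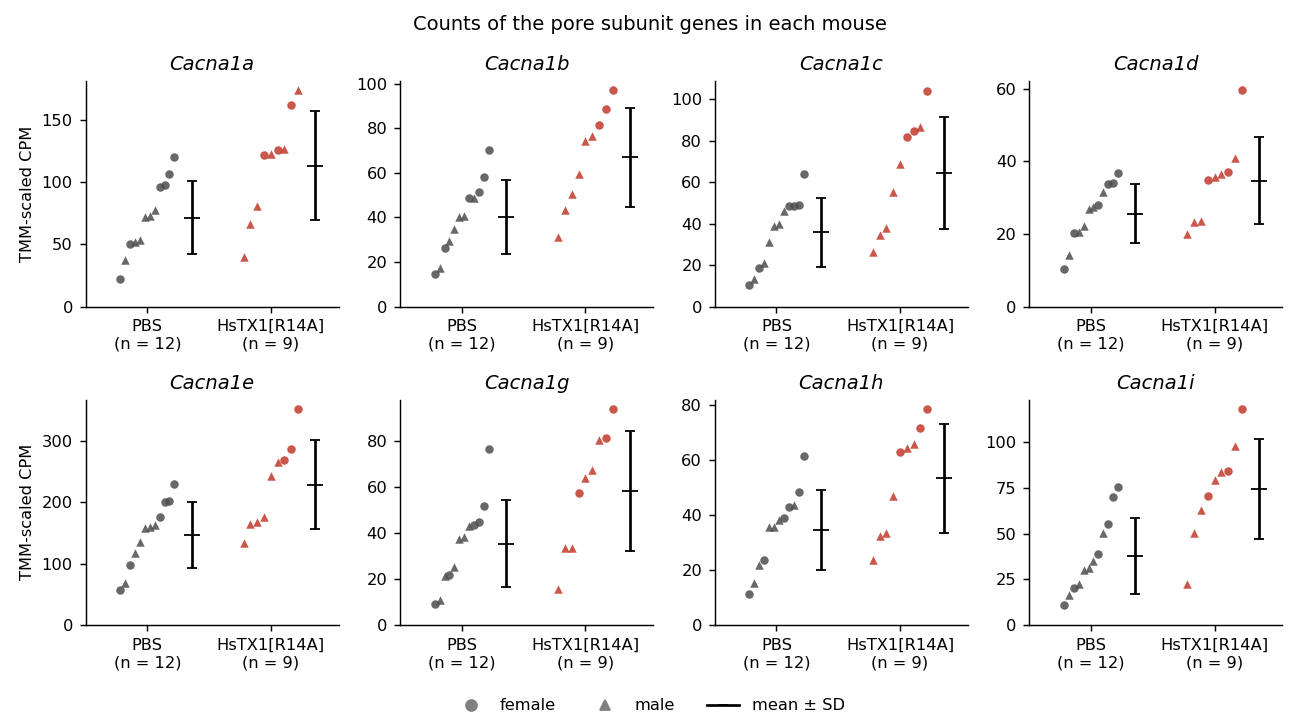
TMM-scaled CPM of each pore subunit gene in every mouse (vertical axes start at 0), sorted within the PBS and HsTX1[R14A] groups, with circles for females, triangles for males and bars for mean ± SD. The groups overlap in all 8 genes, and in 6 of them at least 5 treated mice lie above every PBS mouse.

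The 8 genes moved together from mouse to mouse, so that they do not amount to 8 separate observations. With treatment-by-sex means removed, Pearson's r of log2 CPM over the 21 mice ran from 0.87 (Cacna1d and Cacna1i) to 0.98 (Cacna1b and Cacna1e) across the 28 pairs, as a description of points that share library and depth. PBS mouse 103 was lowest, followed by PBS mouse 90, with member CPM summing to 147 and 193. Treated mouse 98 was highest, at a sum of 1066 CPM. The lowest treated mouse, 93, summed to 312 CPM, below 8 of the PBS mice.

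The order of the mice by pore subunit level followed the order by length slope at both ends. In between the orders differed more. Counted from the lowest, PBS mouse 105 ranked 13 by level and 8 by slope, and treated mouse 92 ranked 7 and 12. The 5 mice with the lowest mean level of the members were the 5 with the lowest slopes, and the 6 with the highest level were the 6 with the highest slopes. Of those 6 mice, 5 were treated, and of the 5 lowest, 4 had received PBS. Each member has a longest transcript of at least 7926 bases, beside a median of 3283.5 bases over all genes with a length. Among the other 931 tested genes at least as long as Cacna1a, 44.3% rose and 2.90% fell, with a median log2 fold change of 0.33. The members' median of 0.77 lay above that of these long genes, but 6 of 8 is to be read against 44.3% as well as against 15.5%.

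With each library's length slope added to the model, the log2 fold changes of the 8 genes lay between -0.27 (Cacna1g) and 0.13 (Cacna1i). No member passed the test, and no gene passed among all 16303 in that edgeR fit, where 11.4% had an unadjusted p under 0.05 (1 of the 8 members). The slope averaged -0.076 ± 0.16 in PBS mice and 0.10 ± 0.12 in treated mice (SD, n = 12 and 9), so this fit also removes whatever treatment and slope share. Removing a smooth trend on length and GC content from each library left 4 members called: Cacna1b (log2 0.32, edgeR FDR = 0.0139), Cacna1c (0.43, FDR = 0.0271), Cacna1e (0.25, FDR = 0.0339) and Cacna1i (0.37, FDR = 0.0339). Cacna1a, Cacna1d, Cacna1g and Cacna1h then had log2 fold changes of 0.11, 0.089, 0.22 and 0.023 and did not pass. The share of all genes called in that fit is not given here, so 4 of 8 cannot be set against it. The part of RNA quality or library preparation in the slopes was not tested.

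**Figure D3:**
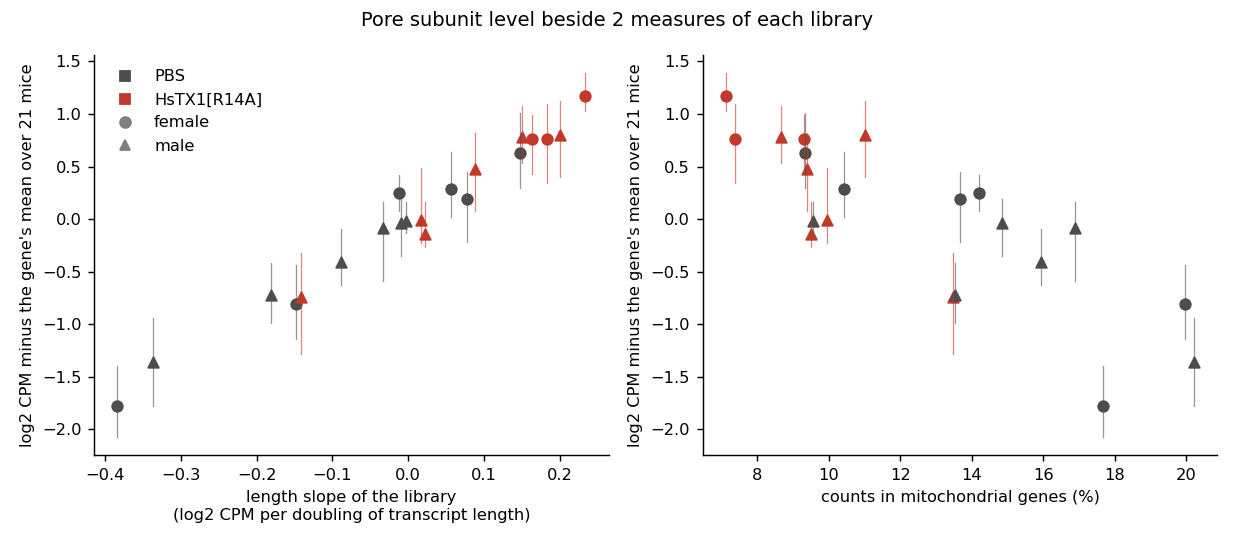
Level of the pore subunits in each mouse (log2 CPM minus each gene's mean over 21 mice; the symbol is the mean of the 8 genes and the line spans the lowest to the highest gene) against the length slope of the library (left) and the percentage of counts in mitochondrial genes (right), with PBS in gray, HsTX1[R14A] in red, circles for females and triangles for males. Levels rise with the slope in both groups, from PBS mouse 103 at a slope of -0.38 to treated mouse 98 at 0.23.

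Column headers name the libraries in 2 forms, with the strain written as SAMP8 (10 PBS and 5 treated mice) or as SAMP (2 PBS and 4 treated mice), and what the forms mark is not given. Within the SAMP8-form libraries all 8 log2 fold changes were positive, from 0.45 (Cacna1d) to 1.09 (Cacna1i). Within the SAMP-form libraries they were also all positive and ran from 0.42 (Cacna1b) to 0.60 (Cacna1i). Neither subset called any gene at an FDR of 0.05 in edgeR, although 5 members in the first form and 0 in the second had an unadjusted p under 0.05. With the name form as a covariate in the whole set, Cacna1b (edgeR FDR = 0.0464) and Cacna1i (FDR = 0.0440) were still called and the other 6 were not. The share of all genes called in that fit is not given here. Nor are the shares of all genes at an unadjusted p under 0.05 in the 2 subsets, so these member counts stand without that background.

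The number of members called also varied with single libraries. The FDR is adjusted over all genes, so this number depends on the calls among all genes in each fit as well. That share is not given here. With 1 mouse left out, the log2 fold changes of the members lay between 0.35 (Cacna1d) and 1.17 (Cacna1i). The number called ranged from 2 to 8 when each mouse was left out in turn, with 2 without treated mouse 98, 3 without treated mouse 88 and 8 without either treated mouse 93 or PBS mouse 83. Cacna1b and Cacna1i passed in all 21 of these fits, Cacna1e in 20 and Cacna1c in 19, whereas Cacna1a passed in 11 and Cacna1h in 10. Without mice 73 and 74, which held the most cerebellar marker RNA, 1 member passed, Cacna1i (edgeR FDR = 0.0489), and all 8 log2 fold changes stayed positive, from 0.42 to 0.96.

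The 2 sexes were compared within the same design. The log2 fold change with treatment ran from 0.68 (Cacna1d) to 1.17 (Cacna1c) in females and from 0.34 (Cacna1d) to 1.10 (Cacna1i) in males. Within each sex alone, 0 of 16303 genes passed in edgeR, so no member did. The members' edgeR FDR ran from 0.150 to 0.225 in females and from 0.177 to 0.396 in males. The treatment by sex interaction passed for 0 of the 8 genes in edgeR and in limma, and for 0.00% of all genes in edgeR. In edgeR, 0 members and 1.66% of all genes had an unadjusted p under 0.05. The interaction was estimated loosely, for example -0.46 ± 0.58 (SE, log2) for Cacna1c, which leaves room for sizable differences between the sexes. Males had lower fitted levels than females in all 8 genes, by log2 differences from -0.34 (Cacna1d) to -0.56 (Cacna1g), but no member passed for sex (edgeR FDR = 0.446 to 0.448), where 0.0552% of all genes did. Cacna1b was the only member with an unadjusted p for sex under 0.05.

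The 8 beta and alpha2delta genes had a median log2 fold change of 0.10, beside 0.77 for the pores. Of these 8 genes 3 rose, as did 15.5% of all genes tested. Their longest transcripts ran from 2734 bases (Cacnb3) to 8225 bases (Cacnb4), beside 7926 to 14921 bases for the pores. The part of transcript length in this contrast was not tested. Of the 4 beta genes, which encode the cytoplasmic subunits that bind the pore's first linker, Cacnb1 rose (group means of 91.9 CPM in PBS and 122 CPM in treated mice; log2 0.45 ± 0.17 SE; edgeR FDR = 0.0465). Cacnb2, Cacnb3 and Cacnb4 had log2 fold changes of 0.12, 0.014 and -0.16 and did not pass. The 95% interval for Cacnb3 was 0.88- to 1.15-fold and that for Cacnb4 0.77- to 1.05-fold, both below the fitted fold of every pore gene. The intervals of the pore genes themselves reached down to 1.05-fold (Cacna1d). No difference between pore and auxiliary genes was tested. Cacnb4, the beta subunit whose loss causes ataxia and seizures in lethargic mice, gave 239 to 368 CPM in PBS mice and 162 to 351 CPM in treated mice.

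Of the 4 alpha2delta genes, which encode the extracellular subunits and include the binding sites of gabapentin, 2 rose. Cacna2d2 increased 1.52-fold (log2 0.60 ± 0.21 SE; edgeR FDR = 0.0352), with a range of 21.4 to 76.8 CPM in PBS mice and of 31.6 to 85.9 CPM in treated mice. Cacna2d3 increased 1.29-fold (log2 0.37 ± 0.14; edgeR FDR = 0.0440). Cacna2d1, with log2 0.082 ± 0.069 (edgeR FDR = 0.356), and the sparse Cacna2d4, with log2 -0.25 ± 0.15 (edgeR FDR = 0.188), did not pass. None of the auxiliary genes passed with the length slope or the name form as a covariate, without a sex term, or without PBS mice 103 and 90.

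**Figure D4:**
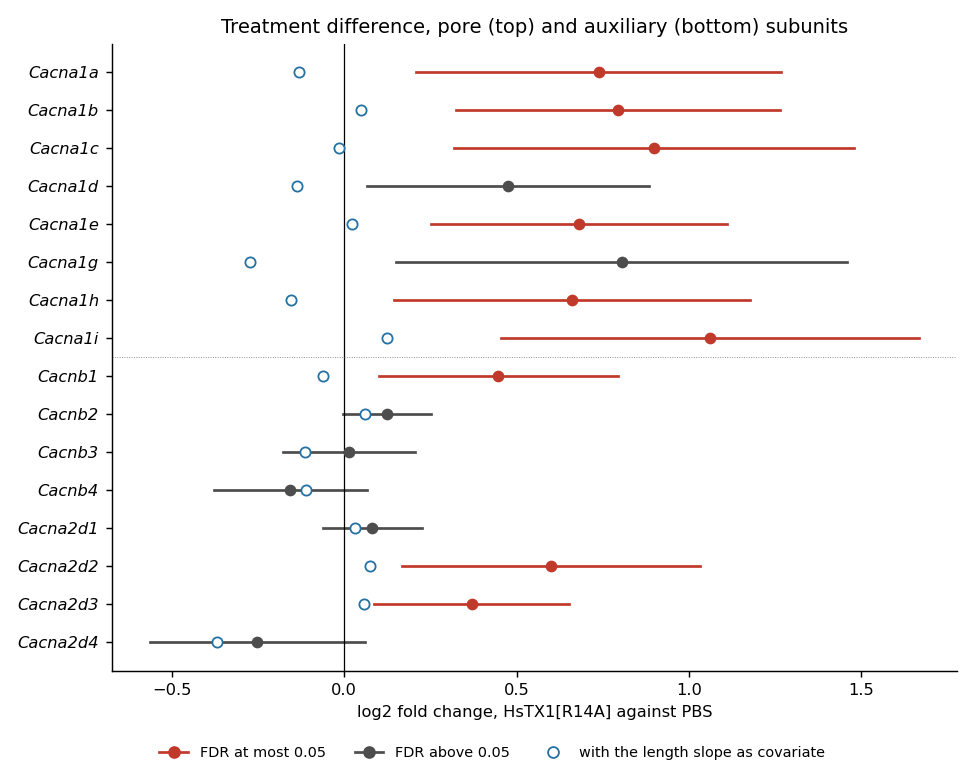
Log2 fold change of HsTX1[R14A] against PBS for the 8 pore genes (above the dotted line) and the 8 beta and alpha2delta genes (below it), as filled points with 95% intervals from edgeR, red where the FDR is at most 0.05. Open circles give the estimate with the length slope as a covariate (no interval drawn), where the pore genes lie between -0.27 and 0.13.

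The remaining partners gave few calls. Of the 7 gamma-family genes in the table, which are mostly AMPA receptor partners, Cacng8 rose (log2 0.70 ± 0.24 SE; edgeR FDR = 0.0340) and Cacng3 came next (0.38 ± 0.15; FDR = 0.0616). Among the listed regulators of the channels, 0 rose, and Calm2, which encodes the calcium sensor for inactivation of these channels, was lower in treated mice (log2 -0.34 ± 0.13 SE; edgeR FDR = 0.0448). The related sodium leak channel Nalcn rose by log2 0.22 ± 0.085 (edgeR FDR = 0.0495), from a PBS median of 89.8 CPM to 101 CPM. The muscle L-type gene Cacna1s lay near 1 CPM in both groups (log2 0.023 ± 0.24; edgeR FDR = 0.949).

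Markers of the cells that carry these channels were read in the same fit. Of 7 neuronal markers, 1 rose, Syt1 (log2 0.31, edgeR FDR = 0.0349), and their summed level ran from 3900 to 6588 CPM in PBS mice and from 4797 to 7687 CPM in treated mice. No thalamic, striatal or cerebellar marker passed. Of 6 oligodendrocyte markers, 3 fell (Mbp, Mog and Mobp), as did 2 of 6 microglial markers (P2ry12 and Aif1) and 2 of 5 astrocyte markers (Gfap and Aqp4). Their summed levels ran from 4135 to 6481 CPM in PBS and 3160 to 4653 CPM in treated mice for oligodendrocytes, from 270 to 366 and 225 to 318 CPM for microglia, and from 827 to 1550 and 863 to 1274 CPM for astrocytes. In the other direction, 1 of 2 oligodendrocyte precursor markers rose (Cspg4, log2 0.66, edgeR FDR = 0.0307). So did 1 of 4 endothelial markers (Flt1, log2 0.64, edgeR FDR = 0.0191). These counts stand beside 15.5% of all genes that rose and 16.1% that fell. The part of cell composition in the pore subunit differences was not tested.

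Outside the family, the 2 genes with the mouse-to-mouse pattern most like each member's had longest transcripts from 3205 bases (Jup) to 23495 bases (Macf1). Likeness was Pearson's r of log2 CPM over the 21 mice with treatment-by-sex means removed, among 13294 candidate genes, and it is given as a description of libraries that share length slopes. The closest were Adgrb1 for Cacna1a (0.987), Ptprs for Cacna1b (0.997), Macf1 for Cacna1c (0.985), Lrp8 for Cacna1d (0.985) and Ash1l for Cacna1e (0.982). For the T-type genes they were Atp11a for Cacna1g (0.989), Phf2 for Cacna1h (0.987) and Jup for Cacna1i (0.984). Of the 2 closest genes to each member, 16 in all, 8 had a longest transcript over 7000 bases. Among these, only Camsap1 (7981 bases, for Cacna1b), Ash1l (11644 bases) and Macf1 (23495 bases) were at least as long as the shortest member. The share of candidates over 7000 bases is not given here. The median r over all candidates was between 0.046 and 0.062 for each member.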

How the data were processed

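Whole-brain RNA of 21 SAMP8 mice was sequenced with 1 library per mouse. The authors aligned reads to GRCm38 with STAR and quantified genes with Salmon, and they deposited estimated counts without normalization. These were rounded before testing, as 90.496% lay within 0.01 of a whole number. The authors' log2 fold changes, p-values, FDR and average expression were not used, nor were 53 per-sample columns of CPM or of other libraries.

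After filterByExpr, 16303 genes remained. TMM scaling and the quasi-likelihood test of edgeR 4.0.16 (R 4.3.3) were applied to all 21 mice, with treatment and sex as terms and Benjamini-Hochberg adjustment (threshold 0.05). The spread is between mice. The 48 same-treatment, same-sex pairs differed by more than sampling noise (chi-square per gene 7.58 or more). Log2 CPM carries a prior count of 2. Transcript lengths came from GENCODE M21, and the procedure was tested on simulated data.

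All members were named, with every beta and alpha2delta gene, the 2 smallest p-values among gamma and regulator genes, Nalcn, Cacna1s, and the 2 genes most correlated with each member at a mean log2 CPM of at least 1. Markers were named for the check of the tissue. A gene that this rule selects is left out and is not reported here. Members and lists were chosen with earlier results of these data known.

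Alternatives were limma 3.58.1 with voom, DESeq2 1.42.0, RLE scaling, other count filters, no sex term, name form or length slope as covariates, removal of a loess trend (span 0.5) on length and GC content, each name form or sex alone, each mouse left out, and merged exon length or library-total scaling for levels. Leaving out mice with over 100 CPM of summed cerebellar markers, or the 2 lowest length slopes, was added after seeing the data.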

Additional observations from a re-analysis of the deposited data

Results flagged for a closer look

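Among 33 measures examined in the 9 treated mice (CPM and share of each member, library measures and marker sums), 4 had a mouse farther from its neighbors than the 95% critical value of Dixon's test allows. No member's own level or share was among them. Chance alone flags about 1 in 20 such sets. Treated mouse 74 held 518 CPM of summed cerebellar markers, with the next treated mouse at 64.7 CPM and the highest PBS mouse at 106 CPM, and its pore subunit genes summed to 643 CPM. Treated mouse 71 held 291 CPM of striatal markers beside 921 CPM or more in the other treated mice and 619 to 1277 CPM in PBS mice. It also held 28.8 CPM of pituitary markers beside 2.25 CPM or less in the other treated mice, but PBS mouse 101 held 33.9 CPM and PBS mouse 85 held 11.2 CPM. Its pore subunit genes summed to 814 CPM. Treated mouse 98, the highest in pore subunit level, held 8383 CPM of the nuclear long noncoding RNAs (Malat1, Neat1, Meg3 and Snhg11), beside 5263 CPM in the next treated mouse and 7012 CPM in the highest PBS mouse. The part of dissection or RNA source in these values was not tested.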

How the results depend on the processing

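Under limma, DESeq2, RLE scaling, both other filters, no sex term, trend removal and without PBS mice 103 and 90, between 4 and 8 of the 8 pore genes were called higher in edgeR or the named tool, against 6 as reported. The count was 2 with the name form as covariate, 1 without mice 73 and 74, and 0 with the length slope as covariate, in SAMP-form libraries, in SAMP8-form libraries, in females and in males (1, 0, 5, 4 and 5 members at an unadjusted p under 0.05, edgeR). Leaving out 1 mouse gave 2 to 8. The share of all genes called in each of these fits is not given beside these counts. For the auxiliary genes the count of 3 became 0 in edgeR with no sex term, either covariate, either name form, either sex, without mice 73 and 74, and without mice 103 and 90, and 0 to 3 on leaving out 1 mouse, with at most 5 of 8 at an unadjusted p under 0.05. With the length slope as covariate, signs turned for Cacna1a (-0.13), Cacna1c (-0.013), Cacna1d (-0.14), Cacna1g (-0.27), Cacna1h (-0.15), Cacnb1 (-0.062) and Cacnb3 (-0.11). Cacnb3 also turned with the name form as covariate (-0.014), trend removal (-0.23), in SAMP8-form libraries (-0.039), without mice 103 and 90 (-0.026) and over single left-out mice (-0.019 to 0.043). Cacnb4 turned in SAMP-form libraries (0.074). The interaction count stayed at 0 under limma and each left-out mouse. By merged exon length, the shares of Cacna1b, Cacna1c, Cacna1e, Cacna1h and Cacna1i became 13.4%, 5.59%, 19.1%, 11.3% and 13.3%, and the PBS level of Cacna1e became 5.82 CPM per kb. Fewer mice enter the subset fits. Beyond that the cause was not tested. The paper states that treatment was randomized among the mice of each cage. The labels give mouse numbers but no cage, so no analysis by cage was possible.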
